A study of Homo sapiens with 60 samples.

Results

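The genes described here encode the respiratory chain and the ATP synthase of SW1783 cells, a human astrocytoma line, split by the genome that holds them. Members were chosen by symbol: MT-ND, MT-CO, MT-ATP and MT-CYB on the mitochondrial genome, and NDUFA, NDUFB, NDUFC, NDUFS, NDUFV, SDH, UQCR, COX4 to COX8 and ATP5 in the nucleus, pseudogenes left out. This gave 121 of the 60675 genes in the deposited table, 13 mitochondrial mRNAs and 108 nuclear genes. Of the nuclear genes, 88 were subunits or their isoforms, 12 were assembly factors, and 8 were antisense, divergent or readthrough transcripts that share the symbol stem only. By complex the mitochondrial mRNAs fell into 7 for complex I, 1 for complex III, 3 for complex IV and 2 for complex V, and the nuclear subunits into 39, 4, 9, 17 and 19 for complexes I to V.

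Cells were exposed for 24 h to vehicle or to ethanol extracts of 6 herbs and 2 herbal formulas, each at 3 doses, and RNA was sequenced. Vehicle cells received 0.1% DMSO per the sample labels, while the text on the series gives 2%. The herbs were Coptidis Rhizoma, Zizyphi Fructus, Citri Unshius Pericarpium, Cimicifugae Rhizoma, Bupleuri Radix and Aconiti Lateralis Radix Preparata, called by their first word below. The formulas were Yijung-tang and Banhasasim-tang. Coptidis was given at 0.56 (low), 2.8 (medium) and 14 µg/mL (high), Bupleuri at 8.4, 42 and 210 µg/mL, and each of the other 6 extracts at 20, 100 and 500 µg/mL. Of 60 libraries, 58 were used: 3 of vehicle, 3 per dose of Citri, Cimicifugae and Bupleuri, 2 high, 3 medium and 3 low of Aconiti, 2 per dose of Coptidis and Zizyphi, 2 high, 2 medium and 1 low of Yijung-tang, and for Banhasasim-tang 1 at each dose. Replicate 1 of high-dose Aconiti and of low-dose Yijung-tang were left out by the same rule that chose the genes. The labels do not say whether replicates came from different cultures, so p-values measure the spread between these libraries, which may be technical. The extract libraries carry a set number in their names (set 11 holds Coptidis with Zizyphi, set 12 Citri with Cimicifugae, set 13 Bupleuri with Aconiti, and set 14 both formulas) and the vehicle libraries carry none, so set and treatment cannot be told apart in any comparison with vehicle. Doses of 1 extract share a set.

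The chain passes electrons from NADH and succinate through complexes I to IV to oxygen, and the proton gradient so made drives ATP synthase, complex V. The small circular mitochondrial genome encodes the hydrophobic core subunits. Its genes are transcribed by POLRMT as long polycistronic RNAs, which are then mostly separated and polyadenylated, and turned over inside the organelle. Every other subunit, and every subunit of complex II, is made from a nuclear mRNA, so each complex except complex II is assembled from both genomes.

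Library totals ran from 15996140 to 30990226 counts, and 50 of the 55 extract libraries were deeper than every vehicle library. Cell type markers were read against the label. Of the astrocyte markers GJA1 (median 210.9 CPM, counts scaled to library size) and SLC1A3 (33.2 CPM) were present, while AQP4 and ALDH1L1 had a median of 0, GFAP 0.132 CPM, S100B 0.132 CPM and SLC1A2 0.253 CPM. Of the 4 mesenchymal or glioma markers VIM (4393 CPM) and CD44 (2699 CPM) were high, NES had 10.1 CPM and SOX2 a median of 0. A median of at least 1 CPM was reached by 2 of 7 astrocyte, 3 of 5 neuron and 3 of 5 microglia and leukocyte markers. The same held for 2 of 5 epithelium, 1 of 4 endothelium and 1 of 4 oligodendrocyte markers. These markers therefore do not single out astrocytes. In RNA from whole cultures, fewer cells of a kind and less RNA per cell cannot be told apart. The library of Aconiti left out had 2.43% of its counts in mitochondrial mRNAs and 0.18% in mitochondrial rRNAs, below every vehicle library, and that of Yijung-tang had 1.64% in nuclear subunits, above every other library.

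Several mitochondrial genes overlap on 1 strand, so their reads cannot be fully told apart. These stretches are shown because reads in them bear on the values of MT-ATP8 and MT-ND4L, the short members of each pair. The sequences are from the mitochondrial genome in GRCh38 (GENCODE v29), plus strand, 5′ to 3′, with the bases that belong to both genes in capitals (46 bases for MT-ATP8 and MT-ATP6, 7 for MT-ND4L and MT-ND4) and 30 bases on either side in lower case. The first lies at chrM:8497-8602 and the second at chrM:10730-10796, both protein coding throughout.
MT-ATP8 and MT-ATP6: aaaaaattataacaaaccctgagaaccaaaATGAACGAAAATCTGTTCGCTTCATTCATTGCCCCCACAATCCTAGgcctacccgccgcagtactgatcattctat
MT-ND4L and MT-ND4: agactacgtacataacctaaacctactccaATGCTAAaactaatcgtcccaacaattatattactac

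The mitochondrial mRNAs stood far above the nuclear ones in vehicle cells. Per kb of exon the 13 mitochondrial mRNAs had a median level of 2467 CPM per kb, against 24.9 CPM per kb for the nuclear subunits and isoforms. MT-CO1, the catalytic subunit of complex IV (chrM:5904-7445), was at 6937 ± 182 CPM per kb (SD, n = 3), followed by MT-CO2 at 6500 ± 21.9 and MT-CO3 at 5221 ± 137 CPM per kb. These 3 subunits of complex IV therefore headed the order, and their levels lay further apart than their SDs. MT-ND4 (3577 ± 174 CPM per kb) and MT-ATP6 (3474 ± 139 CPM per kb) came next and did not differ beyond their spread. The next 5, MT-CYB (2783 ± 178), MT-ND4L (2467 ± 83.3), MT-ND1 (2409 ± 253), MT-ND3 (2317 ± 217) and MT-ND2 (2298 ± 134 CPM per kb), followed closely, and neighbours among MT-ND4L, MT-ND1, MT-ND3 and MT-ND2 lay within their SDs. The lowest were MT-ND5 (1189 ± 41.0 CPM per kb), MT-ATP8 (752.9 ± 48.4 CPM per kb) and MT-ND6 (392.8 ± 32.0 CPM per kb), the only mRNA of the other strand (chrM:14149-14673). The highest was 17.7 times the lowest. In mRNA libraries these levels need not follow the amounts in the cell.

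Nuclear levels per kb differed more. They ran from 0 to 289.7 CPM per kb. In complex IV COX8A led at 289.7 CPM per kb, in complex V the catalytic subunit ATP5F1B at 216.1, in complex I NDUFS5 at 213.9, in complex III UQCR10 at 91.4 and in complex II the iron-sulphur subunit SDHB at 30.3 CPM per kb. Isoforms of particular tissues or states were near 0: NDUFA4L2, a relative of NDUFA4 known from hypoxic cells, was at 0.183 CPM per kb, COX6B2, known from testis, at 0.143 and COX7A1, known from heart and muscle, at 0.435 CPM per kb. Exon lengths are unions over all annotated transcripts, so genes with long minor transcripts read lower on this scale.

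**Figure D1:**
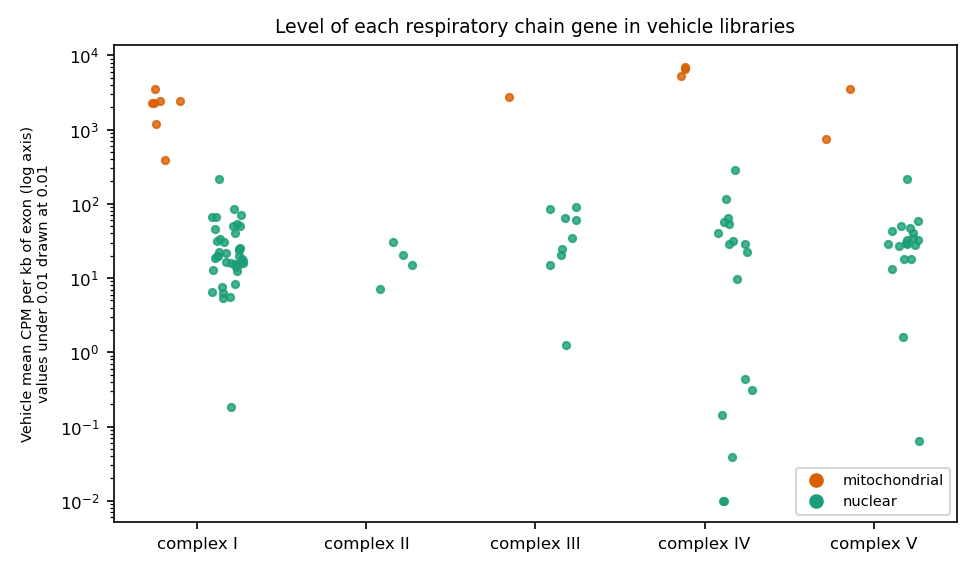
Mean level of each respiratory chain gene in the 3 vehicle libraries, in CPM per kb of exon on a log axis, by complex; orange points are mitochondrial mRNAs and green points nuclear subunits or isoforms. The lowest mitochondrial mRNA, MT-ND6 at 392.8 CPM per kb, lies above the highest nuclear gene, COX8A at 289.7, and complex II has no mitochondrial member.

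Every extract except Coptidis and Banhasasim-tang had a larger share of counts in mitochondrial mRNAs than vehicle, at every dose. The share was 3.88%, 3.78% and 3.99% in the vehicle libraries. In the 46 libraries of the other 6 extracts it ran from 4.05% to 6.26%, with all 46 above every vehicle library. Coptidis stood apart, with 5.18% and 4.52% at the low dose, 3.06% and 3.26% at the medium dose and 3.62% and 3.78% at the high dose, so that only its low dose lay above vehicle. The nuclear subunits moved little by comparison: they took 0.692% to 0.698% of counts in vehicle and 0.568% to 0.785% in the extract libraries, 48 of 55 of which were below every vehicle library. As a result the ratio of mitochondrial to nuclear mRNA counts, 5.45 to 5.72 in vehicle, was above every vehicle library in 53 of 55 extract libraries, up to 9.54.

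Mitochondrial rRNA, which the mRNA libraries also hold in part, took 0.884% to 0.95% of vehicle counts and 0.925% to 1.33% in the same 46 libraries. It was much higher in Coptidis, at 2.08% and 1.94% for the low dose, 10.3% and 10.3% for the medium dose and 4.19% and 4.23% for the high dose. Banhasasim-tang had 3.82%, 9.53% and 7.59% at low, medium and high dose. In these 2 extracts the mRNA share was lowest at the medium dose, where the rRNA share was highest. Both are shares of the same total, so they are not independent. How far the larger rRNA share bears on the lower mRNA share was not tested. In the 46 other libraries the mRNA share was above every vehicle library in all, and the rRNA share in 45. Nuclear copies of mitochondrial genes, whose reads can be confused with the originals (391 such pseudogenes, led by MTATP6P1 at a mean of 425.5 CPM), held 0.0451% to 0.0474% of vehicle counts and 0.0436% to 0.0884% in extract libraries, and their part in the results was not tested.

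**Figure D2:**
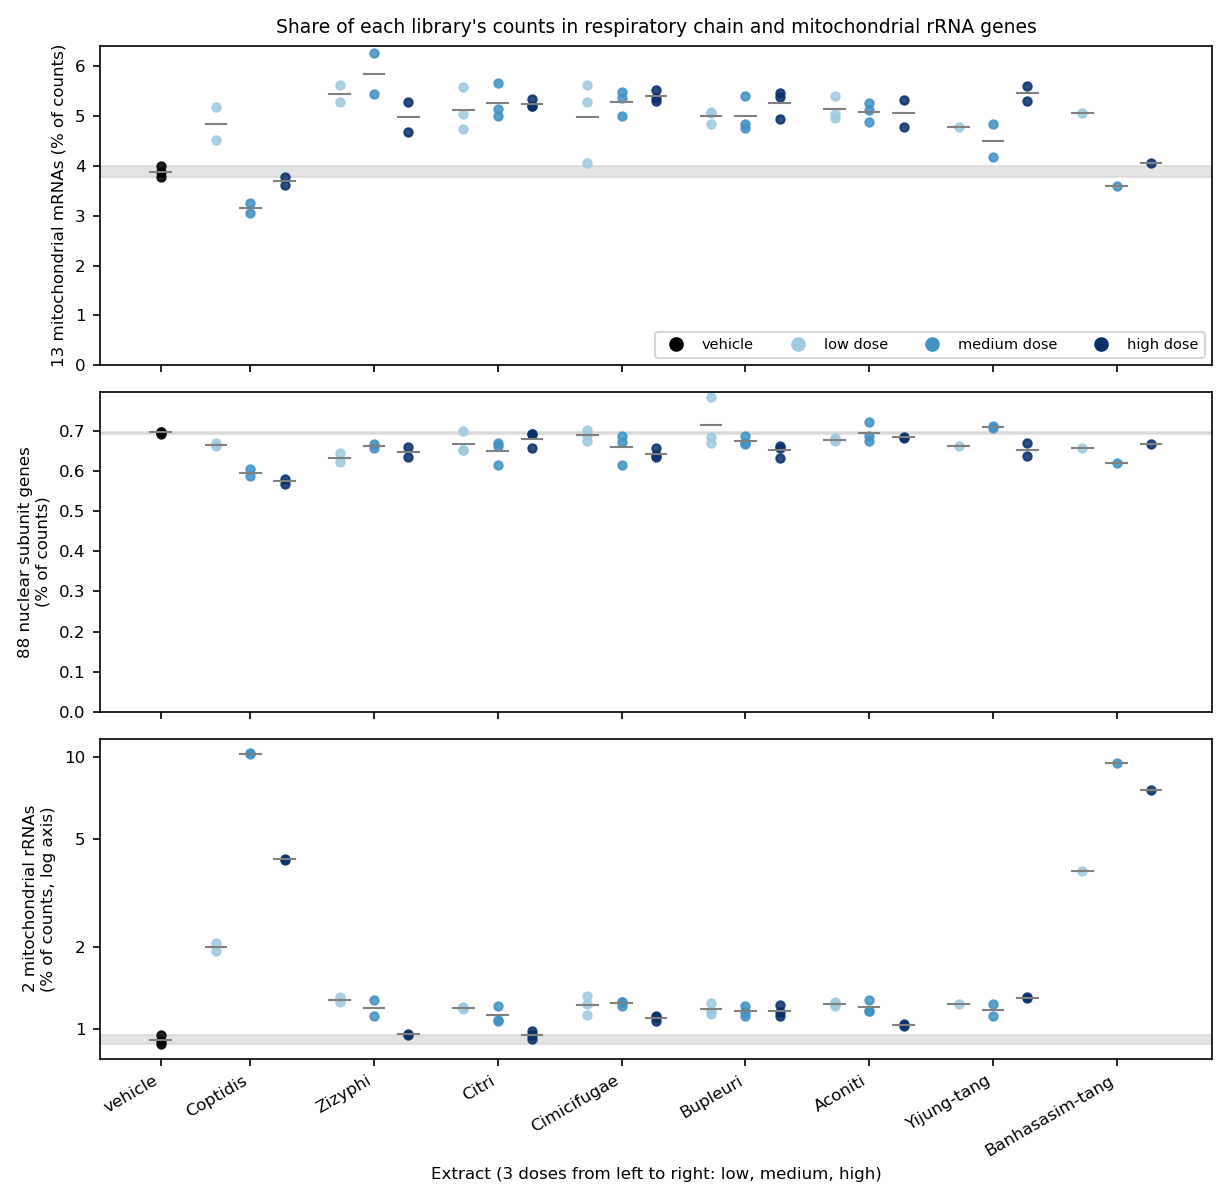
Share of all counts per library in the 13 mitochondrial mRNAs, in the nuclear subunits and in the mitochondrial rRNAs, in percent, with low, medium and high dose from left to right within each extract; each point is a library and the grey band is the range of the 3 vehicle libraries. All libraries outside Coptidis and Banhasasim-tang lie above the band in the first panel (4.05% to 6.26%), and medium-dose Coptidis has the highest rRNA share in the last, at 10.3% in both libraries.

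Gene by gene, the mitochondrial mRNAs were higher in the high-dose extracts than in vehicle while the nuclear subunits leaned lower. MT-CO1 had 10750, 10390 and 10950 CPM in vehicle, 15230, 13470 and 13050 CPM in high-dose Bupleuri and 14160, 14340 and 14190 CPM in high-dose Cimicifugae. Both extracts lay above every vehicle library, with a log2 fold change of 0.38 (SE 0.0665, edgeR adjusted p = 7.82e-06) for Bupleuri and 0.41 (SE 0.0666, edgeR adjusted p = 3.29e-06) for Cimicifugae. Between 9 and 11 of the 13 mRNAs rose (edgeR adjusted p under 0.05, across 17680 genes) in high-dose Zizyphi (9), Aconiti (10), Citri, Cimicifugae, Bupleuri and Yijung-tang (11 each), and 6 in Coptidis. The median log2 fold changes were 0.37, 0.39, 0.44, 0.48, 0.49, 0.50 and 0.47 in that order, with the median of all genes within 0.03 of 0. In Coptidis the size rests on the scaling: by library totals alone its mitochondrial median was 0.20 and that of all genes -0.29, and the raw share of mitochondrial mRNA was not above vehicle. Of all genes tested, 9.34% rose in Zizyphi, 13.1% in Aconiti, 14.7% in Citri, 17.1% in Cimicifugae, 20.3% in Bupleuri, 14.6% in Yijung-tang and 33.7% in Coptidis. Without high-dose Zizyphi replicate 2, 2 mRNAs were called in Zizyphi, and without high-dose Aconiti replicate 2, 2 in Aconiti. With the 2 libraries left out put back into the fit, 1 to 5 mRNAs were called per extract.

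MT-ND3, a core subunit of the complex I membrane arm, rose in all 7 extracts tested. It had 778.3, 741.4 and 885.7 CPM in vehicle and 1297 and 1442 CPM in high-dose Coptidis, where its log2 fold change was 0.77, against 0.50 in Yijung-tang, 0.60 in Bupleuri and Cimicifugae, 0.62 in Citri, 0.68 in Aconiti and 0.71 in Zizyphi. No extract library of these groups overlapped the vehicle range. MT-ND4L, which encodes a neighbouring membrane subunit, had lower values than in vehicle. Its gene overlaps MT-ND4 by 7 bases on the same strand, so how reads were divided between them bears on these values and was not tested. It had 722.1, 760.9 and 714.8 CPM in vehicle, 598.7, 578.1 and 531.1 CPM in high-dose Cimicifugae (log2 fold change -0.36, edgeR adjusted p = 0.0084) and 363.1 and 340.6 CPM in high-dose Coptidis (-1.06, edgeR adjusted p = 1.2e-09). In the other 5 extracts its values, -0.08 to -0.23, did not pass the test.

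Low-dose libraries also had higher mitochondrial mRNAs than vehicle, and here, too, set and treatment cannot be told apart. Of the 13 mRNAs, 11 rose in low-dose Zizyphi (median 0.56), Citri (0.39), Bupleuri (0.40) and Aconiti (0.46), 10 in Cimicifugae (0.36) and 4 in Coptidis (0.21), in comparisons added after the data had been seen. Of all genes tested, 4.89%, 7.06%, 12.2%, 8.87%, 9.18% and 3.23% rose in these comparisons, in that order. Without 1 library the number called in either direction went from 11 to 6 in Zizyphi (low replicate 3), from 12 to 5 in Citri (low replicate 2), from 10 to 4 in Cimicifugae (low replicate 3) and from 5 to 3 in Coptidis (low replicate 2), and with the 2 left-out libraries in the fit it was 0 or 1. MT-ND4L fell in low-dose Citri (-0.35), Bupleuri (-0.42) and Coptidis (-0.53).

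Nuclear subunits that fell against vehicle outnumbered those that rose at the high dose in every extract tested. Of 83 tested, 38 fell and 1 rose in Cimicifugae (median log2 fold change -0.14), 26 and 1 in Zizyphi (-0.12), 26 and 3 in Yijung-tang (-0.11), 23 and 5 in Bupleuri (-0.09), 16 and 3 in Citri (-0.06), 11 and 3 in Aconiti (-0.04) and 27 and 17 in Coptidis (-0.05). Of all genes tested 18.6%, 12.3%, 16.1%, 19.4%, 16.6%, 14.5% and 33.0% fell, in the same order, so the falling share of subunits in Citri, Aconiti and Coptidis was near that background. ATP5PB, which forms the peripheral stalk of ATP synthase, had 173.5, 159.7 and 172.5 CPM in vehicle and 126.3, 128.7 and 131.1 CPM in high-dose Cimicifugae, with no overlap. Its log2 fold change there was -0.39 (edgeR adjusted p = 1.19e-07), and it fell by 0.23 to 0.39 in all extracts except Coptidis, where the libraries overlapped vehicle (-0.11, edgeR adjusted p = 0.0895). Counts of called nuclear subunits depended on single libraries: 14 of 27 were called in Zizyphi without high replicate 2, 11 or 12 of 19 in Citri without high replicate 1, high replicate 2, vehicle 1 or vehicle 2, and 5 to 8 of 14 in Aconiti without either high-dose library, vehicle 1 or vehicle 2. In Yijung-tang, 9 of 29 were called without high replicate 1, 19 without vehicle 1 and 18 without vehicle 2.

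**Figure D3:**
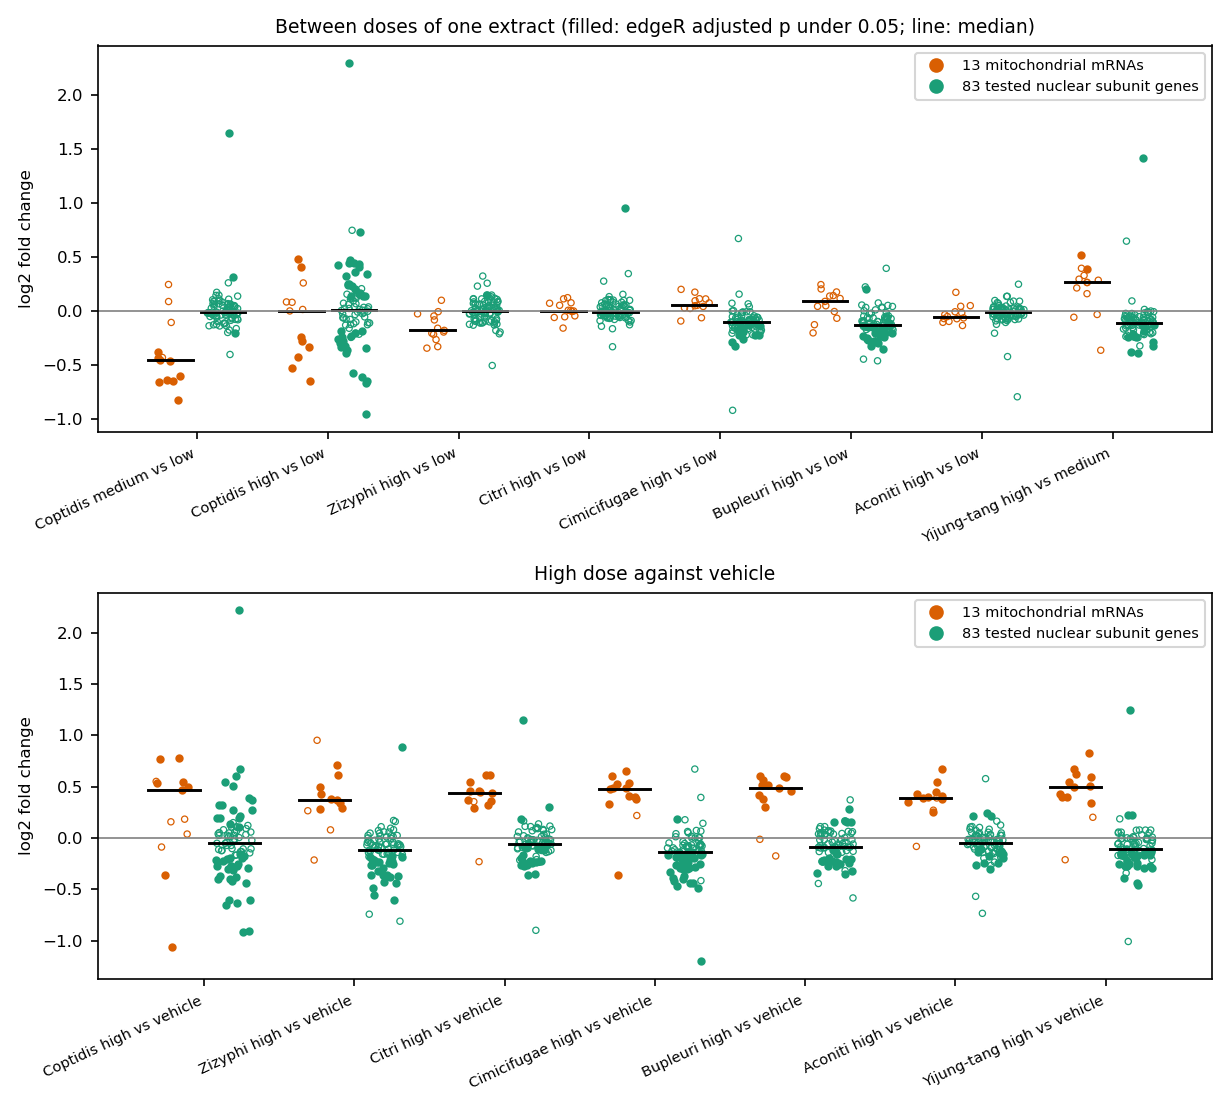
Log2 fold change of each of the 13 mitochondrial mRNAs (orange) and 83 tested nuclear subunits (green), between doses of 1 extract (upper panel) and for the high dose against vehicle (lower panel); points are genes, filled where the edgeR adjusted p was under 0.05, and lines are medians. Mitochondrial medians lie between 0.37 and 0.50 against vehicle, while medium-dose against low-dose Coptidis has a mitochondrial median of -0.46 with nuclear subunits at -0.01.

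Coptidis was the extract in which most mitochondrial mRNAs passed the test between doses. From the low to the medium dose 9 of 13 fell and none rose, with a median log2 fold change of -0.46, while of 83 nuclear subunits 2 rose and 1 fell (median -0.01). In this comparison 13.6% of all genes were called, 7.63% rising and 5.99% falling. MT-CO1 had 13840 and 12150 CPM at the low dose and 8521 and 8578 CPM at the medium dose. All medium-dose libraries were lower, with a log2 fold change of -0.60 (SE 0.0817, edgeR adjusted p = 2.56e-07). MT-ND3 had 1376 and 1211 CPM at the low and 675.5 and 785.7 CPM at the medium dose (-0.82, SE 0.115, edgeR adjusted p = 4.40e-07), again without overlap. The others that fell were MT-CO2 (-0.65), MT-CO3 (-0.39), MT-ATP6 (-0.44), MT-ND1 (-0.47), MT-ND2 (-0.46), MT-ND4 (-0.66) and MT-ND4L (-0.64). Genes at the far end of the transcript did not pass the test: MT-ND5 was at -0.11 and MT-CYB, the only mitochondrial subunit of complex III, at 0.09, as were MT-ND6 on the other strand (0.24) and MT-ATP8 (-0.43). Without low replicate 2, or without medium replicate 2, 5 mRNAs were called. With the 2 left-out libraries in the fit no mitochondrial mRNA was called, and by library totals alone 26 nuclear subunits were.

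From the medium to the high dose part of this set was higher again. In a comparison added after the data had been seen, 6 of 13 rose and none fell (median 0.36), while 60.2% of all genes were called and 30.5% rose: MT-CO3 (0.80), MT-ND3 (0.91), MT-ATP6 (0.70), MT-CO2 (0.65), MT-ND4 (0.38) and MT-CO1 (0.36). MT-CO3 had 3316 and 3573 CPM at the medium dose and 5702 and 6257 CPM at the high dose. These high-dose libraries also exceeded the low-dose ones, at 4757 and 4246 CPM, and the vehicle ones, at 4212, 4004 and 4064 CPM.

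High against low dose, the 13 mRNAs therefore split. MT-CO3 (0.41, SE 0.0951, edgeR adjusted p = 2.18e-04) and MT-ND6 (0.48, edgeR adjusted p = 0.0389) rose, and 6 fell: MT-ND1 (-0.65), MT-ND4L (-0.53), MT-ND2 (-0.43), MT-ND5 (-0.33), MT-ND4 (-0.28) and MT-CO1 (-0.24). The median was -0.00, and 65.5% of all genes were called, so the share of members called is near that background. MT-ND1, a core subunit of complex I at the start of the transcript (chrM:3307-4262), had 5889 and 4586 CPM at the low dose, 3514 and 4068 CPM at the medium dose and 3156 and 3505 CPM at the high dose, with all high-dose libraries below all low-dose ones. It had 2275, 2077 and 2558 CPM in vehicle, so that even the high dose stayed above it. MT-ND2, its neighbour, had 5018 and 4100, 3048 and 3601, and 3189 and 3580 CPM at the 3 doses, against 2433, 2240 and 2511 CPM in vehicle. MT-ND6 had 266.1 and 243.7 CPM at the low dose and 319.5 and 390.2 CPM at the high dose. Its call was lost without high replicate 3, low replicate 2 or low replicate 3, and that of MT-ND4 without high replicate 2, high replicate 3 or low replicate 2. The call of MT-CO1 was lost without high replicate 3 or low replicate 2, and by library totals alone MT-CO3 was at 0.16 (edgeR adjusted p = 0.114). The count of called mRNAs was 3 without low replicate 2 and 4 without high replicate 3.

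**Figure D4:**
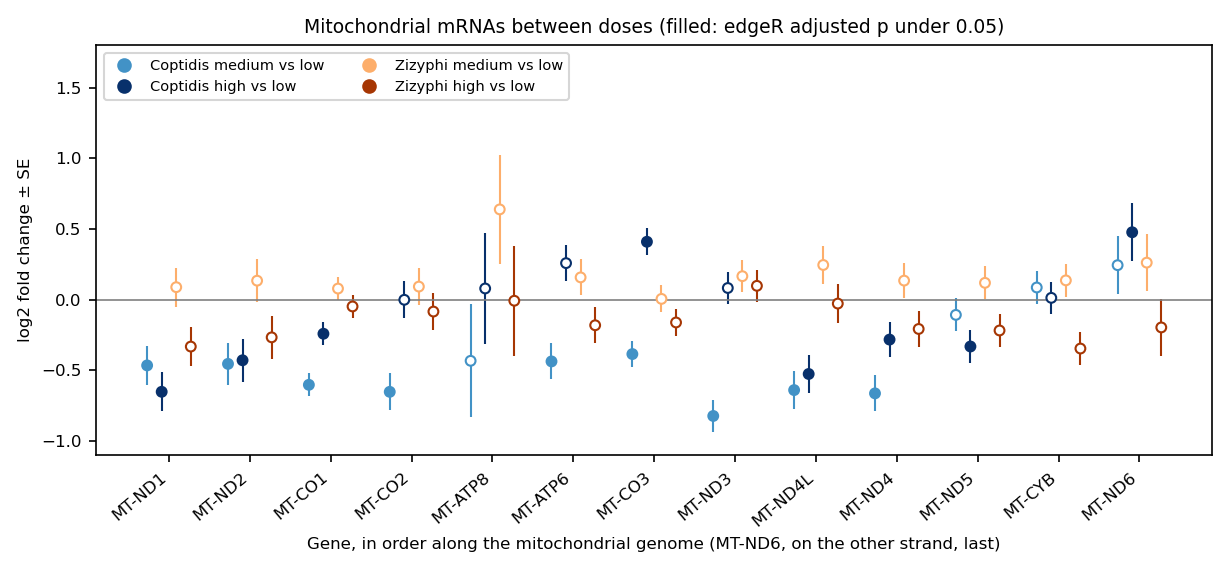
Log2 fold change with its standard error for the 13 mitochondrial mRNAs in genome order (MT-ND6, on the other strand, last), for the medium and the high dose against the low dose of Coptidis and Zizyphi, 2 libraries per group; filled points had an edgeR adjusted p under 0.05. In Coptidis the medium-dose values run from -0.82 for MT-ND3 to 0.24 for MT-ND6, and at the high dose MT-CO3 (0.41) and MT-ND1 (-0.65) lie on opposite sides of 0.

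Zizyphi, which shares a set with Coptidis and has the same number of libraries, allowed the difference in dose effect to be tested. From low to medium, 6 mitochondrial mRNAs had a lower effect in Coptidis than in Zizyphi and none a higher one, where 7.36% of all genes differed: MT-ND3 (difference -0.99, SE 0.161, edgeR adjusted p = 2.19e-05), MT-ND4L (-0.89), MT-ND4 (-0.80), MT-CO2 (-0.75), MT-CO1 (-0.68, SE 0.115, edgeR adjusted p = 4.24e-05) and MT-ATP6 (-0.60). Without medium-dose Zizyphi replicate 3, 3 differed. From low to high, MT-ND6 (0.67), MT-CO3 (0.57) and MT-ATP6 (0.44) were higher and MT-ND4L (-0.50) lower in Coptidis, where 55.4% of all genes differed. The number was 1 without high-dose Coptidis replicate 3 and 2 without high-dose Zizyphi replicate 3, low-dose Zizyphi replicate 2 or low-dose Zizyphi replicate 3. These comparisons were added after the data had been seen.

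In Zizyphi, Citri, Cimicifugae, Bupleuri and Aconiti no mitochondrial mRNA was called by edgeR between high and low dose. At an unadjusted p under 0.05 there were 2, 0, 0, 1 and 0, and DESeq2 called 0 in each. Without a filter on low counts edgeR called 8, 2, 4, 9 and 2. Fits of the compared groups alone called 2 in Zizyphi, 1 in Bupleuri and 2 in Aconiti. Shares of all genes called in these alternative fits are not given here, so their counts cannot be set against a background. In the main fit, with the filter, the medians were -0.18, 0.00, 0.05, 0.09 and -0.05, and 7.57%, 13.7%, 10.6%, 39.3% and 9.55% of all genes were called. From low to medium dose edgeR and DESeq2 called 0 in these 5 extracts in both classes, with 0, 0, 0, 1 and 0 mitochondrial mRNAs and 8, 7, 16, 16 and 2 nuclear subunits at an unadjusted p under 0.05. Hardly any gene of the table was called there either: 0.00566%, 0.0113%, 0.452%, 0.345% and 0.0509%. Without the filter, mitochondrial calls from low to medium dose were 3 in Zizyphi, 5 in Citri, 3 in Cimicifugae and 1 in Bupleuri. Nuclear calls were then 2 in Zizyphi, 1 in Cimicifugae and 3 in Bupleuri, again without a share of all genes to set beside them. Single libraries vary for the short MT-ATP8, which had 270.6 and 678.1 CPM in medium-dose Zizyphi.

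Yijung-tang could be compared only between high and medium dose. There 2 mitochondrial mRNAs rose, MT-ND2 from 2444 and 2883 CPM to 3953 and 3673 CPM (log2 fold change 0.52, SE 0.151, edgeR adjusted p = 0.0216) and MT-ND4 from 4983 and 6364 CPM to 7727 and 7126 CPM (0.39, edgeR adjusted p = 0.0434). Both groups were apart in both genes. The median of the 13 was 0.26 and 9.13% of all genes were called. Neither gene was called without medium replicate 1, high replicate 1 or high replicate 2. The nuclear subunits were lower in the same comparison, 9 of 83 falling and 1 rising (median -0.12).

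Among nuclear subunits, Coptidis moved many in both directions without a shift of the whole. High against low dose 21 of 83 rose and 19 fell (median 0.00), next to 33.0% of all genes rising and 32.5% falling. Complex I had 10 rising and 12 falling of 39. NDUFV1, the flavoprotein that first accepts electrons from NADH, rose from 64.9 and 68.3 CPM to 93.5 and 90.6 CPM, without overlap (log2 fold change 0.47, SE 0.0579, edgeR adjusted p = 1.82e-09). NDUFB3, a small membrane-arm subunit (chr2:201071433-201085750), had 17.4 and 18 CPM at the low dose, 16.7 and 15.9 CPM at the medium dose and 9.35 and 8.82 CPM at the high dose. The high-dose libraries lay below all others, at -0.96 (SE 0.112, edgeR adjusted p = 3.77e-10). NDUFB1, another accessory subunit, fell from 37.0 and 36.0 CPM to 23.0 and 22.9 CPM (-0.67).

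All 4 subunits of the wholly nuclear complex II were called in Coptidis, high against low dose, where 65.5% of all genes were called. SDHB, the iron-sulphur subunit, had 73.3, 76.1 and 74.4 CPM in vehicle and 77.5 and 78.4, 86.0 and 85.3, and 104.7 and 107.5 CPM from low to high dose. No dose groups overlapped, and high against low gave 0.45 (edgeR adjusted p = 2.33e-09). SDHC, which anchors the complex in the membrane, had 103.0 and 102.6 CPM at the low and 83.9 and 85.4 CPM at the high dose (-0.28, edgeR adjusted p = 4.68e-05). SDHA, the flavoprotein, went from 116.4 and 115.9 to 127.9 and 127.1 CPM (0.13, edgeR adjusted p = 0.0105), and SDHD, the other anchor, from 48.6 and 52.8 to 60.8 and 58.4 CPM (0.23, edgeR adjusted p = 0.00644). Scaled by library totals alone, which moves the median of all genes to -0.28, SDHA was at -0.12 and SDHD at -0.02. The call of SDHA was lost without high replicate 2 or low replicate 3, and that of SDHD without high replicate 2 or low replicate 2.

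In complexes III to V of Coptidis the shares of subunits that rose were not above the 33.0% of all genes. UQCRC1 and UQCRC2, the core proteins of complex III, went from 176.3 and 186.1 to 242.2 and 244.7 CPM (0.43) and from 101.3 and 102.4 to 141.8 and 136.0 CPM (0.45), and these 2 were the ones that rose of 9. Complex IV had 4 rising and 1 falling of 13, with COX4I1 at 0.25 and COX6A1 at 0.24 (-0.0017 and -0.018 by library totals alone). In complex V 2 rose and 4 fell of 18. ATP5F1B, the catalytic beta subunit, had 448.1 and 460.4 CPM at the low and 584.9 and 565.7 CPM at the high dose, apart in both libraries (0.34, edgeR adjusted p = 5.73e-10). ATP5MC3, 1 of the genes for the c-ring, fell from 8.89 and 9.60 to 5.46 and 6.28 CPM (-0.66, edgeR adjusted p = 4.58e-06), and ATP5MF (-0.61) and ATP5IF1 (-0.58), the inhibitor of the enzyme's reverse reaction, fell too.

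Among the called subunits, NDUFA4L2 and COX7A2L rose most in Coptidis. NDUFA4L2 had 0.571, 0.284 and 0.682 CPM in vehicle and 0.53 and 0.412, 1.31 and 1.67, and 2.04 and 2.65 CPM from low to high dose of Coptidis. Medium and high dose were above every vehicle and low-dose library, at 1.65 (edgeR adjusted p = 0.0015) and 2.30 (SE 0.364, edgeR adjusted p = 4.24e-07) against the low dose. NDUFA4, its abundant relative, counted with complex I by symbol although its protein is found in complex IV, had 170.3 and 182.9 CPM at the low and 197.4 and 195.5 CPM at the high dose and was not called. In Yijung-tang NDUFA4L2 had 0.344 and 0.559 CPM at the medium and 1.14 and 1.24 CPM at the high dose (1.42, edgeR adjusted p = 0.0121), a call lost without high replicate 2 or medium replicate 1. At about 1 CPM these rest on few counts.

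COX7A2L, which joins complexes III and IV into supercomplexes, had 51.7, 55.5 and 54.03 CPM in vehicle. It had 48.7 and 49.3, 64.5 and 57.5, and 80.0 and 83.1 CPM from low to high dose of Coptidis, each dose above the one before. High against low dose gave 0.74 (SE 0.0655, edgeR adjusted p = 2.10e-13) and medium against low 0.32. In Bupleuri it went from 52.7, 47.5 and 55.8 CPM to 57.4, 60.8 and 61.9 CPM, again apart (0.20, edgeR adjusted p = 0.00172), and was the only subunit there that rose. COX6B2 rose in Citri from 0.563, 0.673 and 0.637 to 1.16, 1.34 and 1.17 CPM (0.95, edgeR adjusted p = 0.00513), the 1 subunit called in Citri, and DESeq2 did not call it.

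**Figure D5:**
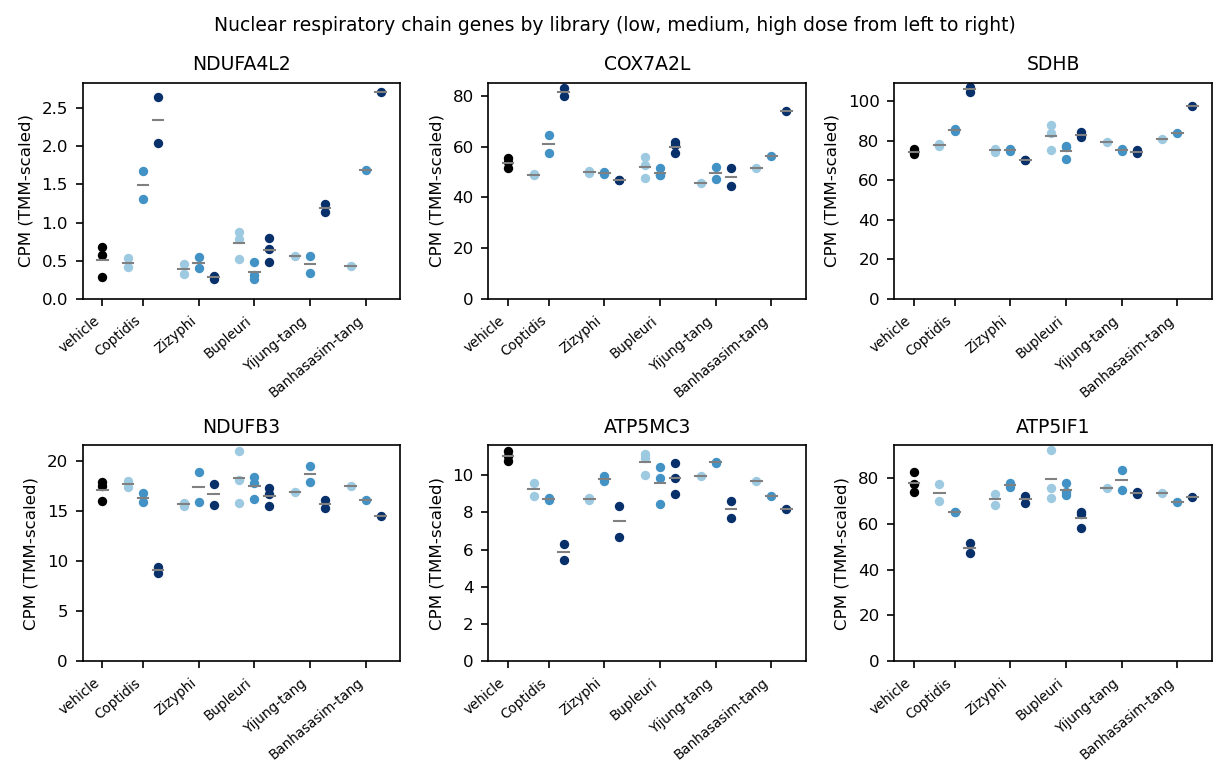
TMM-scaled CPM per library of 6 nuclear genes in vehicle and in low, medium and high dose (left to right) of 5 extracts; points are libraries, grey lines group means, and each axis starts at 0. At the high dose of Coptidis COX7A2L and SDHB are highest (83.1 and 107.5 CPM), and NDUFB3 (8.82 CPM) and ATP5MC3 (5.46 CPM) are lowest. NDUFA4L2 is highest at the high doses of Banhasasim-tang and Coptidis (2.71 and 2.65 CPM).

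In Bupleuri more nuclear subunits fell than rose from low to high dose. Of 83, 22 fell and 1 rose (median -0.13, against -0.00 for all genes, of which 18.9% fell): 9 of 39 in complex I, 1 of 4 in complex II, 3 of 9 in complex III, 2 of 13 in complex IV and 7 of 18 in complex V. DESeq2 called 23. With the 2 left-out libraries in the fit 0 were called in Bupleuri, Cimicifugae and Yijung-tang and 12 of 40 in Coptidis. ATP5IF1 went from 75.9, 71.3 and 92.2 CPM to 58.4, 65.3 and 64.2 CPM, below every low-dose library (-0.35, edgeR adjusted p = 1.38e-05). NDUFB11, a membrane-arm subunit, went from 93.2, 94.1 and 108.0 CPM to 83.5, 80.3 and 76.2 CPM (-0.30, edgeR adjusted p = 1.75e-05). SDHA had 128.9, 122.9 and 132.1 CPM at the low and 116.6, 115.8 and 114.0 CPM at the high dose (-0.15, edgeR adjusted p = 0.00126). The third low-dose library was the highest of its group in all 3 genes, and without it 13 subunits were called, while without the second low-dose library 40 were. Set against the dose effect of Aconiti, of the same set, in a comparison added after the data had been seen, that of Bupleuri was lower for 12 subunits and higher for 1, where 23.6% of all genes differed, and 5 to 8 differed without Aconiti high replicate 2 or 3, Aconiti low replicate 3, Bupleuri high replicate 1 or Bupleuri low replicate 3. No mitochondrial mRNA differed there by edgeR, by DESeq2 or at an unadjusted p under 0.05 (0 in each).

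In Cimicifugae and Yijung-tang, too, more subunits fell than rose. In Cimicifugae 12 subunits fell and none rose between high and low dose (median -0.11; 5.76% of all genes fell), among them NDUFB3, from 18.7, 17.9 and 17.9 CPM to 15.3, 13.6 and 15.6 CPM (-0.29), ATP5MC3 (-0.33), NDUFB6 (-0.26) and UQCRB, from 152.2, 154.4 and 142.7 CPM to 125.7, 123.6 and 135.3 CPM (-0.22). All high-dose libraries of NDUFB3 and UQCRB were below all low-dose ones. The count was 2 without high replicate 2, 3 without low replicate 1, 5 without low replicate 2 and 7 by library totals alone. Against Citri, of the same set, no subunit and no mitochondrial mRNA differed in dose effect by edgeR or DESeq2 (17 and 0 at an unadjusted p under 0.05), where 1.07% of all genes differed. In Yijung-tang UQCR10, a small complex III subunit, fell from 94.4 and 97.1 CPM at the medium to 78.1 and 78.7 CPM at the high dose (-0.29, SE 0.0555, edgeR adjusted p = 3.11e-04), with ATP5MC3 (-0.39), NDUFA1 (-0.38) and NDUFC1 (-0.33), while 4.87% of all genes fell. There the 10 called subunits became 2 to 6 when any 1 of the 4 libraries was left out.

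The dose left the nuclear subunits of Zizyphi, Citri and Aconiti almost without calls, where 7.57%, 13.7% and 9.55% of all genes were called. In Zizyphi SDHA was the 1 called, from 112.8 and 117.0 to 127.0 and 127.9 CPM (0.15, SE 0.0462, edgeR adjusted p = 0.0368), and the call was lost whichever library was left out. In Aconiti edgeR and DESeq2 called 0 of 83 with 1 at an unadjusted p under 0.05. Without a filter on low counts 1 was called there, and 2 in the fit of the compared groups alone, with no share of all genes given for either.

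Assembly factors, which build the complexes and are not part of them, went both ways in Coptidis, 5 of 12 rising and 3 falling, near the 65.5% of all genes called. SDHAF4, which helps insert the flavin subunit of complex II, rose from 4.89 and 4.16 to 8.27 and 7.66 CPM (0.82, edgeR adjusted p = 9.42e-06), and SDHAF3, which serves the iron-sulphur subunit, fell by 0.70 on the log2 scale. SDHAF4 also rose in Citri (0.67), SDHAF1 (0.39) and NDUFAF7 (0.27) rose in Cimicifugae, NDUFAF4 (0.32) rose in Bupleuri, and NDUFAF3 fell by 0.37 in Zizyphi. The 8 antisense, divergent and readthrough transcripts cannot be separated from the genes they overlap, since the strand setting of the counting is not given. Of the 5 tested, ATP5MF-PTCD1 (0.44) and NDUFA6-DT (-0.74) were called in Bupleuri.

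Genes outside the rule that act on the chain were read from fixed lists. In Coptidis, high against low dose, 11 of 15 mitochondrial chaperones and proteases rose and 3 fell (median 0.41), next to 33.0% and 32.5% of all genes: HSPA9, the matrix Hsp70, went from a mean of 391.2 to 1006 CPM (1.36) and LONP1, the matrix protease, from 68.2 to 167.5 CPM (1.297), while HSPE1 fell by 1.02 on the log2 scale. LONP1 (0.67) and HSPA9 (0.52) had risen by the medium dose, where 4 of 15 rose and none fell, next to 7.63% and 5.99% of all genes. Of 16 genes for mitochondrial transcription and replication, 7 rose and 7 fell at the high dose, next to the same background: POLRMT, the mitochondrial RNA polymerase, went from 34.8 to 81.1 CPM (1.22), and MGME1 (-1.46) and MTERF2 (-1.296) fell. Of 25 genes for RNA processing and stability, 6 rose and 12 fell, against the same 33.0% and 32.5%. SUPV3L1, a helicase of the mitochondrial RNA-degrading complex, went from 38.2 to 122.8 CPM (1.69), LRPPRC, which stabilises mitochondrial mRNAs, rose by 0.51, and FASTKD5, which processes junctions that no tRNA marks, went from 19.4 to 3.94 CPM (-2.30). At the medium dose, where 9 mitochondrial mRNAs fell, the same genes differed less: POLRMT rose by 0.31, LRPPRC by 0.12, and FASTKD5 fell by 0.32 on the log2 scale.

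Other lists in Coptidis moved in both directions at the high dose, where 33.0% of all genes rose and 32.5% fell. Translation factors had 8 rising and 4 falling of 12, with OXA1L, which inserts mitochondrial subunits into the inner membrane, at 0.75. Assembly factors outside the symbol rule had 7 rising and 19 falling of 35 tested (median -0.28), with COX10 at 0.65 and COA5 at -1.07. Regulators of mitochondrial genes had 4 and 2 of 10 tested, the tricarboxylic acid cycle 7 and 5 of 17, and electron carriers 3 and 3 of 8, so these 3 lists were not far from that background.

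In Bupleuri the regulators gave the largest values, in the comparison in which 22 nuclear subunits fell. PPARGC1A, a coactivator known to promote respiratory gene expression, went from a mean of 2.84 to 8.57 CPM between low and high dose (1.59, edgeR adjusted p = 1.46e-13), and PPARGC1B from 3.38 to 9.57 CPM (1.51). ESRRA, a nuclear receptor they act through, rose by 0.35, and the transcription factor NRF1 fell by 0.29 on the log2 scale, for 4 rising and 1 falling of 10. PPARGC1A fell in Zizyphi, from 3.43 to 1.39 CPM (-1.32), and in Cimicifugae (-0.61), where the libraries overlapped. In Bupleuri, where 20.4% of all genes rose and 18.9% fell, 11 of 25 RNA processing genes rose and 3 fell, led by FASTKD2 (0.39) and LRPPRC (0.35), 7 of 12 translation factors and 5 of 15 chaperones and proteases rose and none fell, led in the latter by LONP1 (0.54) and HSPA9 (0.45). In the tricarboxylic acid cycle 3 rose and 3 fell of 17, IDH2 falling by 0.75 on the log2 scale. Among the other extracts no list had more than 3 genes rising or more than 2 falling between the high and the low dose, or the medium dose of Yijung-tang.

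Banhasasim-tang, with 1 library per dose, has no test. Its mitochondrial mRNA share was 5.06%, 3.59% and 4.06% from low to high dose, lowest at the medium dose as in Coptidis. MT-ND3 had 1464, 826.6 and 1236 CPM, MT-ND4 5764, 3906 and 5252 CPM and MT-ND1 6339, 4015 and 3959 CPM. The first 2 dipped at the medium dose and MT-ND1 did not recover at the high one. NDUFA4L2 had 0.432, 1.68 and 2.71 CPM, COX7A2L 51.5, 56.1 and 74.0 CPM and SDHB 80.9, 83.9 and 97.5 CPM, each higher at a higher dose, and NDUFB3 had 17.4, 16.0 and 14.5 CPM.

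Promoters of 3 nuclear members are shown as examples: SDHA and SDHB from the wholly nuclear complex, and NDUFB3 as the called subunit with the largest fall in Coptidis. They are RefSeq windows on GRCh38.p14, from 250 bases before to 50 after a start in RefSeq, written 5′ to 3′ on the gene's strand. That start can differ from the end of the gene's span: the NDUFB3 window lies inside the span given above, which begins at 201071433. Matches to 3 motifs on either strand are in capitals: GCGCA followed after 1 free base by GCGC (NRF1), CCGGAAG (ETS factors) and AAGATGGCG (YY1). SDHA lies at chr5:218070-218369 on the plus strand with 4 NRF1 matches, SDHB at chr1:17053983-17054282 on the minus strand with 1 ETS and 1 YY1 match, and NDUFB3 at chr2:201071751-201072050 on the plus strand with none.
SDHA: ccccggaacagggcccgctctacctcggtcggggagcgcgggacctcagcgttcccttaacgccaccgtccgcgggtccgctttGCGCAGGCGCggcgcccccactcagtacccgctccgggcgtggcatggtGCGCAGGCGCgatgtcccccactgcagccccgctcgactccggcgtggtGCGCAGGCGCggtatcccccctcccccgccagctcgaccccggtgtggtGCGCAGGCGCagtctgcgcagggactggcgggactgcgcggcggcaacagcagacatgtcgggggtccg
SDHB: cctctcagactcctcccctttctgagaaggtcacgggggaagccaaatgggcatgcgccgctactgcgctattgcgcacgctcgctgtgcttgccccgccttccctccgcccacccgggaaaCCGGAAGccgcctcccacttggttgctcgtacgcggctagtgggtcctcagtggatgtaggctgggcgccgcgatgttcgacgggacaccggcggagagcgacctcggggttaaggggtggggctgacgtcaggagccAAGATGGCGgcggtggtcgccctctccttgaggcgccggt
NDUFB3: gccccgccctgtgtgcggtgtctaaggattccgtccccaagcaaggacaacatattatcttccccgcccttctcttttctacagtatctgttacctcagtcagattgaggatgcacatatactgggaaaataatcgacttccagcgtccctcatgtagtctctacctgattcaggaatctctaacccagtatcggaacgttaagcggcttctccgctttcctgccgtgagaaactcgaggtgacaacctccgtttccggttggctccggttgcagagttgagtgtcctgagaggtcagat

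The tables matched 70 of the 88 nuclear subunit genes, with 83 windows. NRF1 letters were in 20.5% of these windows, against 5.78% of all 35116 windows of the same length, ETS letters in 26.5% against 10.3%, and YY1 letters in 12.1% against 1.75%. Any of the 3 was in 49.4% of member windows and 16.1% of all windows. A match describes letters and not a bound site.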

How the data were processed

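Gene expression was measured by RNA sequencing of mRNA libraries (MGIEasy RNA Directional kit, 100 bp paired ends, RNA integrity number above 7, per the labels). The deposited table holds an expected count for each gene and library. The submitters' processing notes name the build hg38 and the tools RSEM 1.3.3, STAR 2.7.3a, Trim Galore 0.6.5 and FastQC 0.11.9, while annotation, strand setting and what each tool did are not given in the sources used. Of 60675 genes, 23499 had no count, and 9.18% of values were not whole, so counts were rounded. RSEM divides reads that fit several genes, so levels of nuclear copies and overlapping genes are estimates. Wilson 95% intervals of a library's shares were at most 0.012 percentage points wide on either side and cover counting error only, since reads are not independent molecules.

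Groups came from the labels. The 54 libraries of 21 groups with at least 2 libraries entered one fit with edgeR 4.0.16 in R 4.3.3 (glmQLFit and glmQLFTest, TMM scaling, filterByExpr at a minimum count of 10), which tested 17680 genes. Adjustment of p-values was by the method of Benjamini and Hochberg over all genes of a comparison, and called means an adjusted p under 0.05. A standard error is the log2 fold change divided by the square root of F. CPM are TMM-scaled over the 58 libraries, and shares are of unscaled totals. Low-dose Yijung-tang and Banhasasim-tang, with 1 library per group, were described only.

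The members, the lists of chaperones and proteases, transcription and replication, RNA processing, regulators, translation factors, assembly factors, electron carriers and tricarboxylic acid cycle genes, and the comparisons were chosen with earlier results of these data known, and support nothing beyond a description. SCO2 was not analysed here. Of 20 planned comparisons, dose comparisons share their low-dose libraries and vehicle comparisons share the vehicle libraries. A further 11 were added later. Named nuclear genes were the 4 largest called changes each way per dose comparison with a mean of at least 1 CPM and separate libraries, the subunits of complex II and the isoforms, with up to 3 called genes each way per list. Others (ATP5PB, ATP5MF, ATP5F1B, UQCRC1, UQCRC2) were chosen after their values were seen. Alternatives were DESeq2 1.42.0 (its size factors and its test), library totals alone, library sizes without mitochondrial genes, no filter, fits of the compared groups only, a replicate block, each library left out, and the 2 left-out libraries put back. Replicate numbers were not used to pair libraries in the main fit, and with 2 libraries per group pairing could not be judged.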

Additional observations from a re-analysis of the deposited data

Results flagged for a closer look

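Effects of dose were set against each other between extracts that share a set, and a test of the difference itself (edgeR, adjusted p under 0.05) picked out 5 results. From low to medium dose, 6 mitochondrial mRNAs and 3 nuclear subunits differed between Coptidis and Zizyphi, where 7.36% of all genes differed. The nuclear ones were COX7A2L (difference 0.33), NDUFA6 (-0.29) and UQCR10 (-0.31). That number of subunits was 0 or 1 without Coptidis low replicate 2 or 3, Coptidis medium replicate 2, Zizyphi low replicate 2 or Zizyphi medium replicate 3, and 20 by library totals alone. From low to high dose, 4 mitochondrial mRNAs and 32 nuclear subunits differed between them, 15 subunits higher and 17 lower in Coptidis. UQCRC1 (0.53) and UQCRC2 (0.38) were among them. Of all genes 55.4% differed there, so the shares of both classes were below that background. Between Bupleuri and Aconiti, 13 nuclear subunits differed from low to high dose, 12 of them lower in Bupleuri. This share, too, was below the 23.6% of all genes that differed.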

How the results depend on the processing

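DESeq2's size factors, and library sizes without mitochondrial genes, left every count of called genes within 1.5 times of the reported one. DESeq2's own test moved the nuclear count of Citri from 1 to 0, that of low-dose Coptidis against vehicle from 7 to 11, and that of Coptidis against Zizyphi, medium against low, from 3 to 5. By library totals alone the median of all genes moved to -0.28 in Coptidis high against low dose, and several values changed sign there: high against low SDHA -0.12, SDHD -0.020, COX4I1 -0.0017, COX6A1 -0.018, COX8A -0.21, UQCRH -0.24 and MT-CYB -0.24; high against vehicle SDHA -0.24, SDHD -0.24, COX4I1 -0.14, COX6A1 -0.057, COX6B1 -0.26, COX8A -0.22 and MT-CO1 -0.23; and against Zizyphi COX8A -0.27. The same scaling gave 3 nuclear calls in Citri, 7 in Cimicifugae, 6 in Yijung-tang, 26 in medium against low Coptidis and 8 in Aconiti against vehicle. Without a filter on low counts, mitochondrial and nuclear calls between high and low dose were 8 and 2 in Zizyphi, 2 and 2 in Citri, 4 and 20 in Cimicifugae, 9 and 39 in Bupleuri, 2 and 1 in Aconiti and 11 and 16 in Yijung-tang, and from low to medium 3 and 2 in Zizyphi, 3 and 1 in Cimicifugae, 1 and 3 in Bupleuri and 5 mitochondrial in Citri. Fits of the compared groups alone gave 2 and 0 in Zizyphi, 2 and 2 in Aconiti, 8 and 17 in Yijung-tang, 1 mitochondrial in Bupleuri, 6 nuclear in medium against low Coptidis and 24 nuclear in Aconiti against vehicle. Shares of all genes called under these settings are not given here, and the cause was not tested.

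With the 2 left-out libraries in the fit, mitochondrial and nuclear calls were 2 and 12 in Coptidis high against low and 0 and 1 in medium against low; nuclear calls were 0 in Zizyphi, Citri, Cimicifugae and Bupleuri and 1 in Aconiti, and Yijung-tang had 0 and 0. Against vehicle they were 5 and 13 in Coptidis, 1 and 0 in Zizyphi, 2 and 1 in Citri, 3 and 4 in Cimicifugae, 5 and 2 in Bupleuri and 2 and 2 in Yijung-tang, with 1 mitochondrial in Aconiti, where MT-ND2 changed sign (-0.0043).

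With each library left out in turn, mitochondrial and nuclear calls ranged, high against low, over 3 to 7 and 31 to 40 in Coptidis, 0 to 1 and 0 in Zizyphi, 0 and 1 to 2 in Citri, 0 to 1 and 2 to 14 in Cimicifugae, 0 to 1 and 13 to 40 in Bupleuri, 0 and 0 in Aconiti and 0 to 3 and 2 to 6 in Yijung-tang. From low to medium they were 5 to 9 and 1 to 2 in Coptidis, with nuclear calls of 0 to 1 in Cimicifugae and 0 to 7 in Bupleuri and 0 for the rest. Against vehicle they were 8 and 36 to 41 in Coptidis, 2 to 8 and 14 to 25 in Zizyphi, 9 to 11 and 11 to 15 in Citri, 11 to 12 and 27 to 34 in Cimicifugae, 10 to 11 and 20 to 27 in Bupleuri, 2 to 10 and 5 to 10 in Aconiti and 10 to 11 and 9 to 23 in Yijung-tang.

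Same-numbered libraries deviated together weakly or not at all: their correlations ran from -0.13 (Zizyphi, high and low) to 0.30 (Cimicifugae, medium and low). In the latter comparison they were 0.067 to 0.30, against -0.23 to 0.045 for libraries of different number. With 2 libraries per group the 2 kinds of correlation mirror each other, so pairing cannot be judged there. With the replicate number as a block, Zizyphi had 1 mitochondrial call in place of 0, and with set and number together as a replicate block Yijung-tang had 1 in place of 2. No other count moved by over 1.5 times under either block. The crossed pairing in Zizyphi gave 0 and 1.

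Groups of 1 to 3 libraries, deeper extract than vehicle libraries, and genes at about 1 CPM limit what can be seen.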

Other observations

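The 2 mitochondrial rRNAs differed in size of change in Coptidis. MT-RNR1, the small-subunit rRNA, took 0.0651% to 0.0684% of vehicle counts and MT-RNR2, the large-subunit rRNA, 0.819% to 0.882%. At the medium dose of Coptidis they took 1.87% and 1.83%, and 8.46% and 8.44%. The ratio of mitochondrial mRNA to rRNA counts was 4.20 to 4.29 in vehicle and as low as 0.296 among the extract libraries. In mRNA libraries these shares need not follow the amounts in the cell.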
